A study of Mus musculus with 10 samples.

Results

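The glutathione S-transferases are the enzymes that join glutathione to reactive compounds, and 10 genes of the family were followed here in the lungs of mice that breathed cigarette smoke. The members were Gsta2, Gsta3 and Gsta4 of the alpha class, Gstm1, Gstm2 and Gstm5 of the mu class, Gstp1 of the pi class, Gstt1 of the theta class, Gsto1 of the omega class and the microsomal Mgst1. They were taken by name: every probe on the array was used whose gene symbol, or whose transcript accession read through the RefSeq gene table, belonged to a member. This gave 14 probes for 10 genes, out of 27670 genes named on the array, with 2 probes each for Gsta3, Gstm1, Gstp1 and Mgst1.

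Whole lungs came from female BALB/c mice that were 6 to 8 weeks old when bought. The smoke group inhaled the mainstream smoke of 12 unfiltered reference cigarettes in each session, with 2 sessions of 50 minutes a day on 5 days a week, for 8 weeks, and the control group was kept in room air over the same period. Each group had 5 mice and each mouse had 1 array. Lung RNA was hybridised to a mouse oligonucleotide array whose scanner files hold 2 colours, and each value below is the log2 ratio of red, taken as lung, to green, taken as a reference.

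Glutathione S-transferases are soluble or membrane-bound enzymes that attach the thiol of glutathione to electrophiles such as epoxides, unsaturated aldehydes and quinones, which makes them more soluble and ready for export. The soluble classes arose by gene duplication, so that neighbours within a class have similar sequences but different preferred substrates. Many are known targets of Nrf2, a transcription factor released by oxidants and electrophiles, and the lung meets such compounds directly in tobacco smoke.

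Some probes of 60 bases are close to those of related genes. The Gsta2 probe and the probe of its close relative Gsta1, a gene outside the 10 members, are shown first because they overlap, with the overlap in capitals.
Gsta2: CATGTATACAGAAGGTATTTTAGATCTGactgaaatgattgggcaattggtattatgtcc
Gsta1: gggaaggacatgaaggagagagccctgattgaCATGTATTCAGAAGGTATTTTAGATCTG
Over the 28 bases of overlap the pair differed at 1 base, A8T, with the Gsta2 base first and positions counted from 1 at the 5′ end of the Gsta2 probe. In the deposited annotation each of these probes lists transcripts of both genes, so the value given for Gsta2 may hold signal from Gsta1. No other probes of different genes in the family shared a run longer than 10 bases, which does not show whether a probe binds the transcript of another member. The Gsta2 probe lies at chr9:78408171-78408230 on the minus strand of mm7, the build of the array files.

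The other members that rose were read by the following probes, shown because the calls below rest on them.
Gsta4: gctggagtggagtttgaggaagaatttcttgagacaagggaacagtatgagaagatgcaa
Gstp1: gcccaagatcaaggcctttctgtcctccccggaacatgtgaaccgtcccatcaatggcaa
Gstp1, the second probe: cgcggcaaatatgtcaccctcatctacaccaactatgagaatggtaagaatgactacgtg
Gsto1: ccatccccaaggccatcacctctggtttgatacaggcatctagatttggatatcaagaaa
Mgst1: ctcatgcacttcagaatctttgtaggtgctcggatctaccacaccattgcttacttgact
In mm7 the Gsta4 probe spans chr9:78241323-78242428, a stretch of 1106 bases for a probe of 60, so it crosses at least 1 intron. The second Gstp1 probe likewise spans 816 bases, from chr19:3930714-3931529. The first Gstp1 probe lists transcripts of both Gstp1 and its neighbour Gstp2, whereas the second lists Gstp1 alone. The Gsto1 probe lies at chr19:47765135-47765194 and the Mgst1 probe at chr6:138200932-138200991. The array files do not say which part of a transcript a probe reads.

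The labels name a single dye, Cy3, which is read in green, and no second RNA. The files hold red and green, so the role of each channel was inferred from the values and is not stated in the deposit. Surfactant protein Sftpc, made by alveolar type 2 cells, had a median log2 ratio of 5.80 over the 10 arrays, and Ager, a gene of alveolar type 1 cells, had 4.91. The Y-linked gene Ddx3y, which female lungs lack, had a median of −2.29 and was well above background in green on 10 arrays and in red on 2. Eif2s3y (−2.12) and Kdm5d (−0.80), also Y-linked, were so in green on 10 arrays and in red on 0 and 1. Uty, at 0.05, was not above background in either channel. Each direction below rests on the group under which a scanner file was deposited. In the authors' table of processed values every column equalled, within 0.001, the mean log2 signal of both channels of the equally numbered array from the other group. The signs there are turned for 9 of the 10 members, all but Gstm1, and the files do not say whether the table or the scanner files carry the exchanged groups. Under the scanner-file groups Cyp1b1, Ahrr and Nqo1, genes known to be induced by tobacco smoke, were higher with smoke, as given below, and this was not used to assign a group.

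Smoke raised 5 of the 10 members: Gsta2, Gsta4, Gstp1, Gsto1 and Mgst1 passed the threshold, which was an adjusted p under 0.05 over all probes in limma's moderated test. Gsta3, Gstm1, Gstm2, Gstm5 and Gstt1 did not pass it. Over all 27669 genes tested, each read by its brightest probe, 4.94% were called higher with smoke and 3.27% were called lower. No member was called lower, a count of 0 that was also 0 at an unadjusted p under 0.05 in limma. An exact Wilcoxon test called 0 probes in either direction, and so 0 members higher and 0 lower. Its smallest possible p with 5 lungs against 5 came to an adjusted p of 0.115, so no probe could pass it here. The median difference over the 10 members was 0.23 log2 units, beside −0.0042 over all genes. By probe, 7 of the 14 were called higher, where 4.35% of all probes were. By class, 2 of 3 alpha members, the pi, the omega and the microsomal member rose, while 0 of 3 mu members passed and the theta member did not. All 14 probes were well above background in both channels on 10 arrays, and none of their spots was saturated. A change in the number of cells of a type and a change in the RNA of each cell cannot be told apart in whole lung.

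With each array centred on its median in place of an intensity-dependent loess curve, 1 member, Gsta2, stayed past the threshold, and over all probes 47.9% of the calls were then higher with smoke, against 61.7% with loess. Gsta3 then lay at −0.0041, whereas the 5 members that rose stayed above 0.

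**Figure D1:**
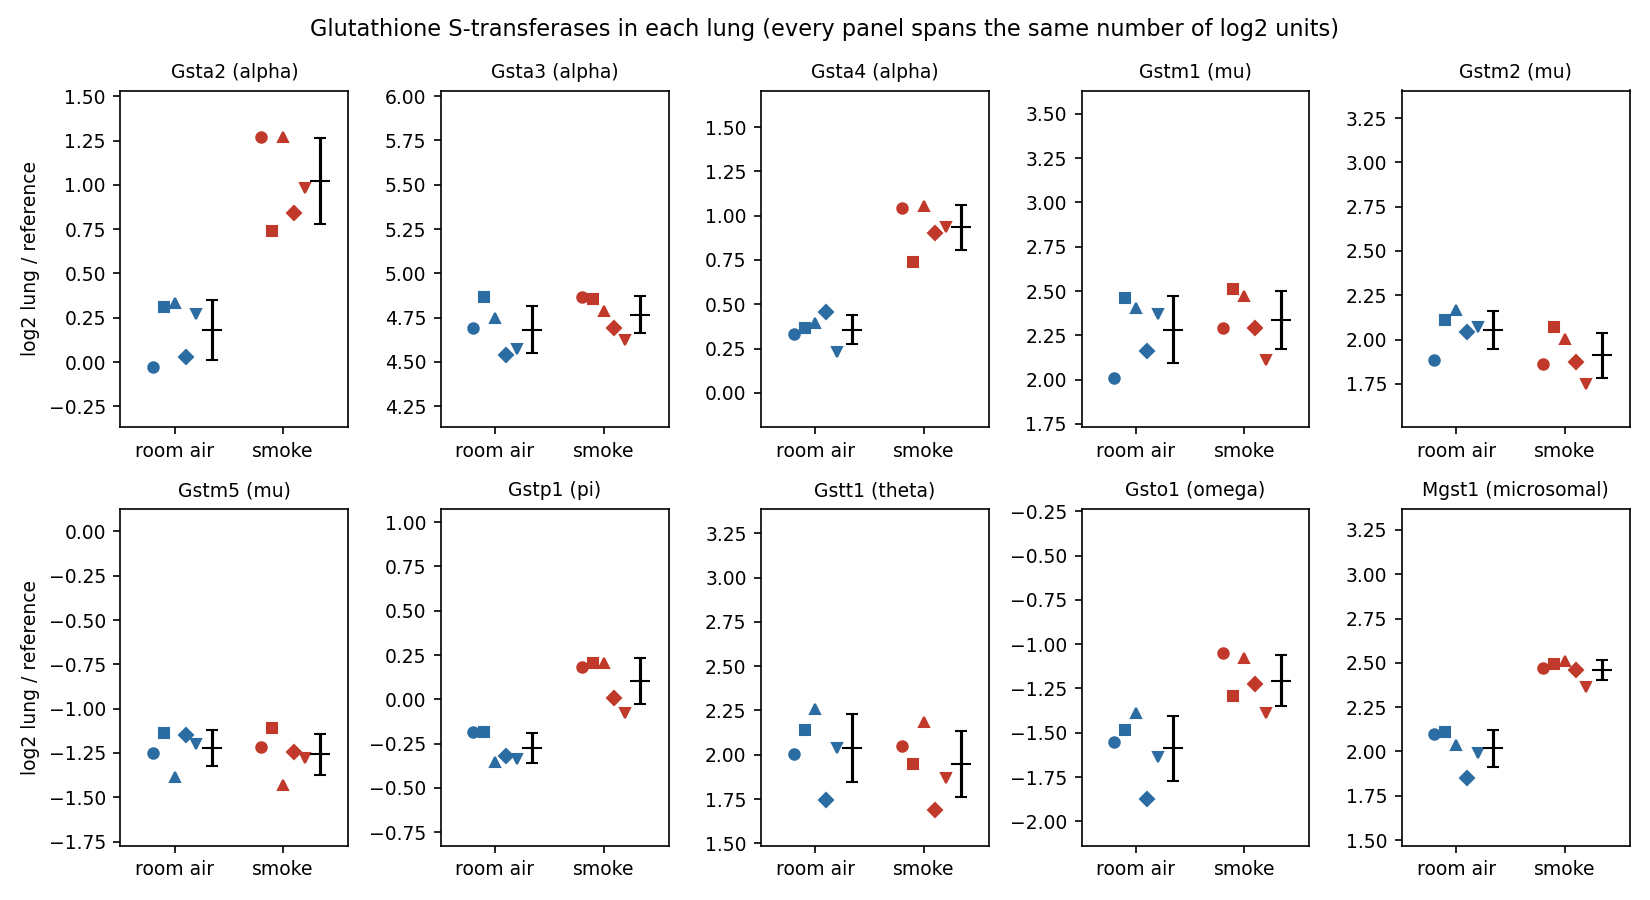
Log2 ratio of lung to reference (vertical axis) in each room air lung (blue) and each smoke-exposed lung (red) for the 10 members, read by the brightest probe. Symbols mark replicates 1 to 5 (circle, square, upward triangle, diamond, downward triangle), and black bars give the mean and SD of 5 lungs. The smoke points of Gsta2, Gsta4, Gstp1 and Mgst1 all lie above the room air points, and those of Gsto1 meet them at −1.39.

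Gsta2, an alpha-class enzyme that also reduces lipid hydroperoxides, moved most among the members. In room air its log2 ratios in replicates 1 to 5 were −0.03, 0.31, 0.33, 0.03 and 0.27. With smoke they were 1.27, 0.74, 1.27, 0.84 and 0.98. Every smoke-exposed lung was above every room air lung, and replicates 1 and 3 were the highest of the smoke group. The mean went from 0.18 ± 0.17 to 1.02 ± 0.24 (SD, n = 5 each), a rise of 0.84 ± 0.12 (SE; 1.79-fold, limma adjusted p = 0.00127). Gsta1, whose probe overlaps that of Gsta2, rose by 0.98 ± 0.11 (SE, limma adjusted p = 2.87e-04), and the shared listing means that these are not independent readings of separate genes.

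Gsta4, the alpha-class enzyme with a high activity for hydroxynonenal and other aldehydes of lipid peroxidation, was printed as 10 spots on every array. Its room air ratios were 0.33, 0.36, 0.39, 0.46 and 0.23. Its smoke ratios were 1.04, 0.74, 1.06, 0.90 and 0.93. The groups did not overlap, and the lowest smoke value, in replicate 2, was still well clear of the highest room air value. The difference was 0.58 ± 0.07 (SE; 1.49-fold, limma adjusted p = 3.97e-04).

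Gsta3, the third alpha-class member, which in mice conjugates the epoxide of aflatoxin, gave a different picture. In room air it stood at 4.69, 4.87, 4.75, 4.54 and 4.57. With smoke it stood at 4.87, 4.86, 4.79, 4.69 and 4.63. The ranges overlapped almost wholly. The difference was 0.08, with a 95% interval from −0.08 to 0.24 (limma adjusted p = 0.664), and the second Gsta3 probe gave 0.04, with an interval from −0.18 to 0.26. The rises of Gsta2 and Gsta4 lie outside both intervals.

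Members of a class were then compared directly, by an exact two-sided permutation test of the difference between a pair of log2 ratios in each lung, over all regroupings of the arrays, with adjustment over the 6 pairs. The response of Gsta2 exceeded that of Gsta3 by 0.75 (exact p = 0.00794, the smallest that 5 against 5 allows, adjusted p = 0.0238), in 5 of 5 slides. The response of Gsta3 lay below that of Gsta4, at −0.49 (exact p = 0.0159, adjusted p = 0.0317), again in 5 of 5 slides. Gsta2 and Gsta4 differed by 0.26, which missed the threshold (exact p = 0.0556, adjusted p = 0.0833), although it was above 0 in 5 of 5 slides (0.01 to 0.59). In the scanner's own log ratios that last difference was 0.46 (adjusted p = 0.0119), in the red channel alone it was 0.45 (adjusted p = 0.0159), and without room air replicate 5 it was 0.31 (adjusted p = 0.0476).

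The mu class, soluble enzymes with a broad range that includes epoxides of polycyclic hydrocarbons, showed no member past the threshold. Gstm1 had room air ratios of 2.01, 2.46, 2.40, 2.16 and 2.37. With smoke the ratios were 2.29, 2.51, 2.47, 2.29 and 2.11. The groups overlapped, and the lowest value was the room air lung of replicate 1. The difference was 0.05, with a 95% interval from −0.17 to 0.27, and the second Gstm1 probe gave 0.03. Gstm1 turned to −0.10 in the red channel alone after quantile normalisation, to −0.0055 with array weights and to −0.01 without room air replicate 1. Gstm2 ranged from 1.88 to 2.17 in room air and from 1.75 to 2.07 with smoke, a difference of −0.14 with an interval from −0.30 to 0.01 (limma adjusted p = 0.330). It was lower with smoke on 5 of 5 slides, with differences from −0.33 to −0.02, and did not pass. Gstm5 ranged from −1.39 to −1.14 in room air and from −1.43 to −1.11 with smoke, a difference of −0.03 with an interval from −0.18 to 0.12.

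Between mu members, Gstm1 exceeded Gstm2 in response by 0.20 (exact permutation p = 0.00794, adjusted p = 0.0238), in 5 of 5 slides and from 0.07 to 0.30, although neither gene passed on its own. Gstm1 and Gstm5 differed by 0.09 (exact permutation p = 0.508) and Gstm2 and Gstm5 by −0.11 (exact permutation p = 0.317), and both missed the threshold, the latter while below 0 in 5 of 5 slides (−0.25 to −0.05). In all, 3 of the 6 pairs passed. This test sets aside that the lungs lie on slides in pairs, and an exact test that turns signs within 5 slides could not give a p below 0.0625.

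**Figure D2:**
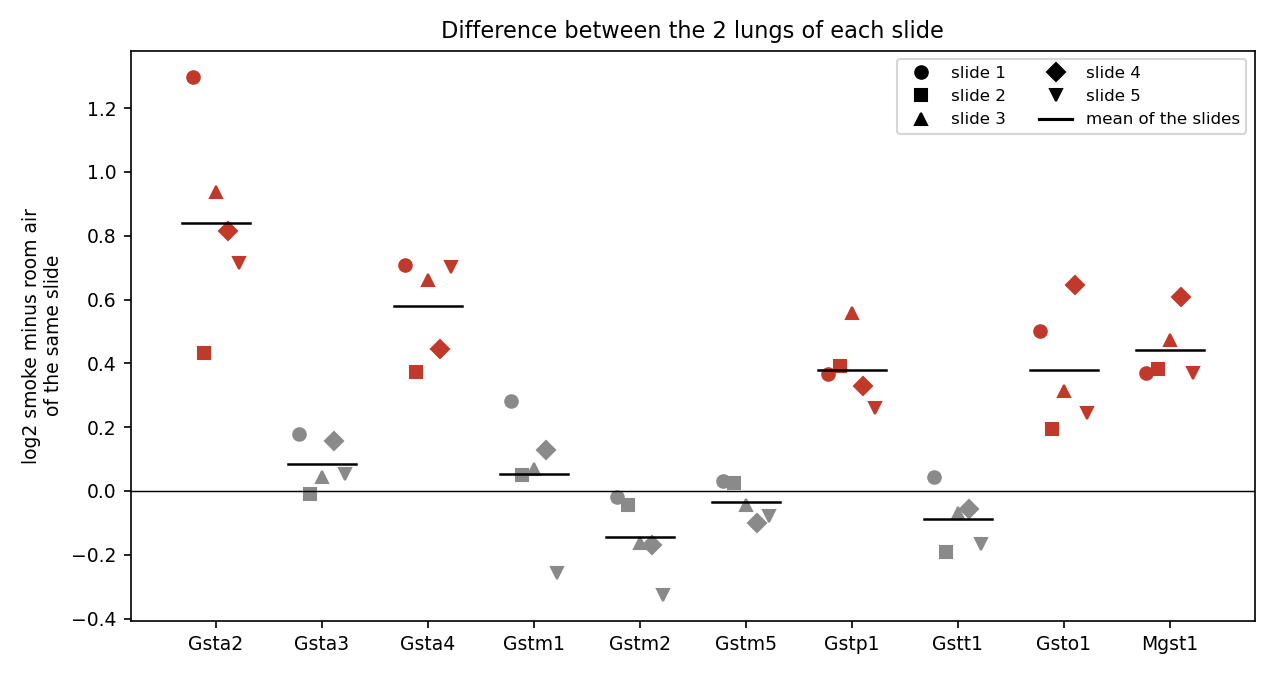
Log2 difference between the smoke-exposed and the room air lung hybridised on the same slide (vertical axis) for each member, with 1 symbol for each of 5 slides and a black bar at their mean. Members past the threshold (red) were above 0 on 5 of 5 slides, and Gstm2 was below 0 on 5 of 5.

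Gstp1, the pi-class enzyme that conjugates acrolein and diol epoxides, both found in tobacco smoke or formed from it, rose on both its probes. On the brighter probe the room air ratios were −0.18, −0.18, −0.35, −0.32 and −0.34. With smoke they were 0.18, 0.21, 0.20, 0.01 and −0.08. The groups did not overlap, and smoke replicates 4 and 5 lay nearest to the room air lungs. The difference was 0.38 ± 0.07 (SE; 1.30-fold, limma adjusted p = 0.00573). The second probe, which lists Gstp1 alone, gave 0.39 ± 0.07 (SE, limma adjusted p = 0.0064). With red read alone and scaled to the 75th percentile, the brighter probe gave 0.45 and missed the threshold (limma adjusted p = 0.0562), while the second gave 0.48 and passed (limma adjusted p = 0.0480).

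Mgst1, a membrane enzyme of the endoplasmic reticulum and the outer mitochondrial membrane that also acts as a peroxidase, had room air ratios of 2.10, 2.11, 2.04, 1.85 and 1.99. With smoke they were 2.47, 2.49, 2.51, 2.46 and 2.36. The smoke values lay close together and above every room air value. The difference was 0.44 ± 0.06 (SE; 1.36-fold, limma adjusted p = 7.67e-04), and the other Mgst1 probe gave 0.63 ± 0.07 (SE; 1.54-fold, limma adjusted p = 3.41e-04). With red read alone, the first Mgst1 probe passed at 0.60 (limma adjusted p = 0.0301) and the other, at 0.66, missed the threshold (limma adjusted p = 0.0506). Gsta2, Gsta4, Gstp1 and Mgst1 were the 4 members whose groups did not overlap, where 4.6% of all genes were separated in this way upward and 3.26% downward.

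Gsto1, the omega-class enzyme that reduces oxidised thiols and dehydroascorbate, had room air ratios of −1.55, −1.48, −1.39, −1.87 and −1.64. Its smoke ratios were −1.05, −1.29, −1.08, −1.23 and −1.39. Smoke replicate 5 and room air replicate 3 met at −1.39, and the other smoke-exposed lungs were above every room air lung. The difference was 0.38 ± 0.09 (SE; 1.30-fold, limma adjusted p = 0.0335). This call did not hold without room air replicate 5 (adjusted p = 0.0725), nor without smoke replicate 1 (0.0889), 2 (0.0507), 3 (0.0828) or 4 (0.0638), with differences of 0.34 to 0.40. It was also lost when red was read alone, with an adjusted p of 0.17 after scaling by the 75th percentile and 0.13 after quantile normalisation.

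Gstt1, the theta-class enzyme that acts on small halogenated compounds and epoxides, ranged from 1.74 to 2.26 in room air and from 1.69 to 2.19 with smoke. Its difference was −0.09, with a 95% interval from −0.32 to 0.15, and the groups overlapped.

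**Figure D3:**
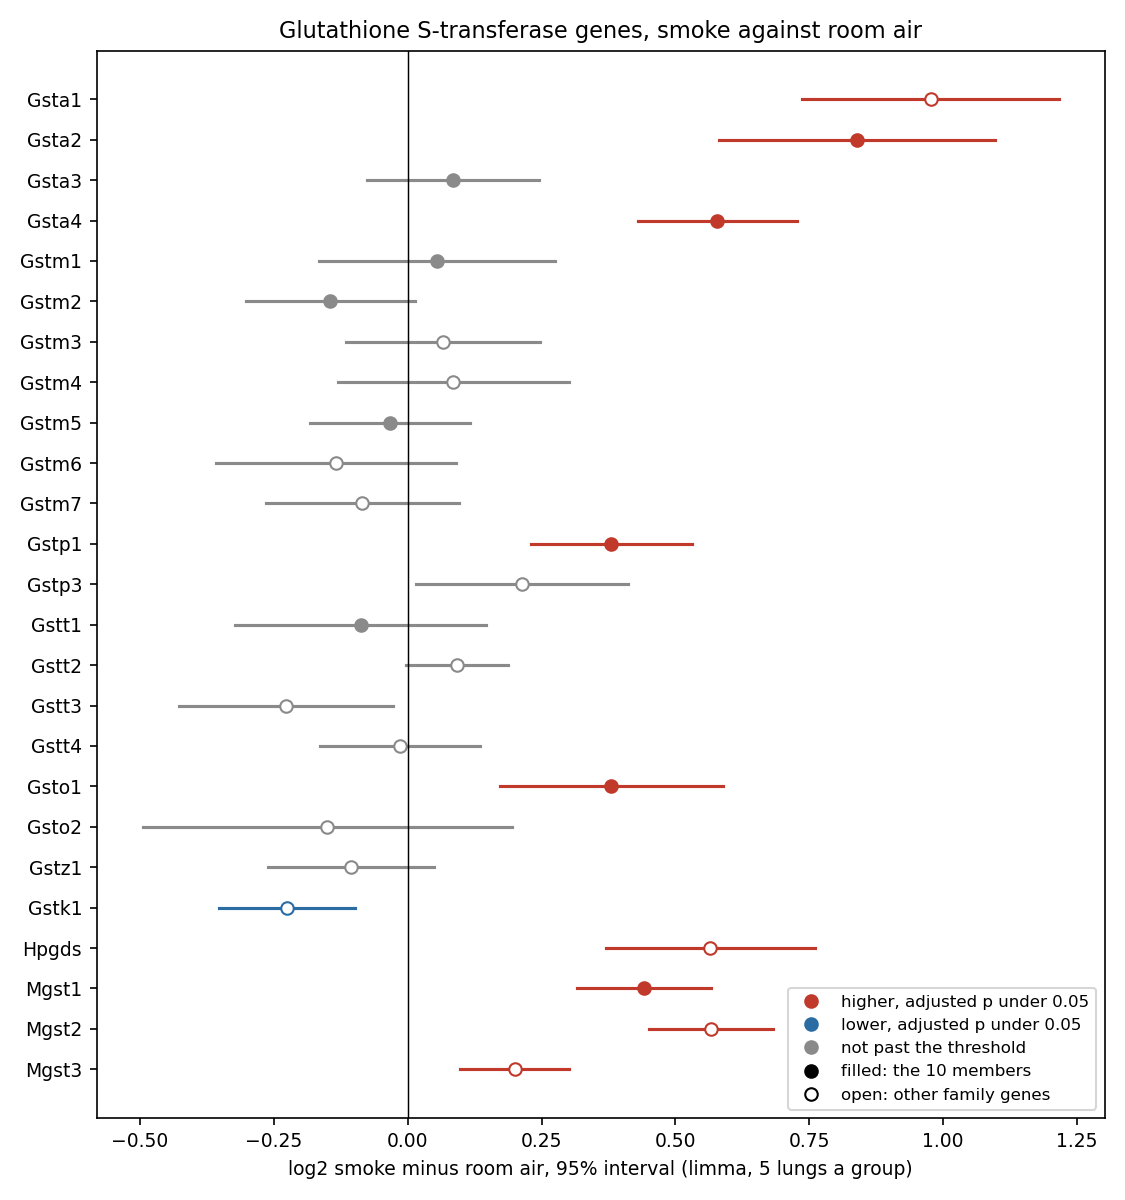
Log2 difference between smoke and room air (horizontal axis) with its 95% interval for the 10 members (filled) and the 15 other genes of the family named by a probe (open). Red marks genes called higher, blue genes called lower and grey genes that did not pass. The 7 mu genes lie between −0.14 and 0.08, and Gsta1 has the largest rise at 0.98.

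Of 18 other genes of the family that were listed, 15 were named by a probe and Gsta5, Gsta13 and Gstp2 were not. The Gsta1 probe also lists Gsta2, and the Gstm7 probe lists no transcript of the family in the annotation. Of these 15 genes 4 rose, namely Gsta1, Mgst2, Hpgds and Mgst3, and 1 fell, Gstk1. The median of the 15 was 0.07, beside −0.0042 over all genes. Mgst2, a membrane enzyme that can make cysteinyl leukotrienes, rose by 0.57 ± 0.05 (SE, limma adjusted p = 8.01e-05). Hpgds, the sigma-class enzyme that isomerises a prostaglandin precursor, rose by 0.57 ± 0.09 (SE, limma adjusted p = 0.00252), with red well above background on 8 arrays. Mgst3 rose by 0.20 ± 0.05 (SE, limma adjusted p = 0.0238), while its next probe, at 0.25, did not pass (adjusted p = 0.0866). Gstk1, the kappa-class enzyme of mitochondria and peroxisomes, fell by 0.23 ± 0.06 (SE, limma adjusted p = 0.039), and its groups did not overlap. With Mgst1, 3 of 3 microsomal genes were called higher. Across the mu class, 0 of 7 genes passed, and 0 did so at an unadjusted p under 0.05. Gstp3 missed the threshold at 0.21 (adjusted p = 0.231) and passed with the replicate number as a block (adjusted p = 0.0131). Gstt4 was well above background in red on 2 arrays and in green on 0. The 10 that did not pass lay between −0.23 and 0.21.

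The start regions of 9 of the 10 members were in the RefSeq promoter table (GRCm38.p6), and Gsta4 was not. In the 250 bases before each start, both strands were searched for TGACNNNGC, the core of the antioxidant response element that Nrf2 binds, and for GCGTG, the core of the xenobiotic response element that the aryl hydrocarbon receptor binds. The first was present in 10.2% and the second in 28.2% of 32851 promoters. These shares count every start, whereas a member was counted once, if any of its starts held the core. Gstm1 and Mgst1 had 2 starts each. Of the 4 members with a promoter that rose, 1 held the antioxidant core and 2 the xenobiotic core, and of the 5 that did not pass, 2 and 2 held them. A match is no proof of a working site, and no match says only that these letters are not in this window. The examples, with matches in capitals, come from 3 members that rose and from Gsta3, which did not pass. Gstm1 and Gstm5, not shown, held the xenobiotic core and did not pass either.
Mgst1, chr6:138140277-138140526, plus strand: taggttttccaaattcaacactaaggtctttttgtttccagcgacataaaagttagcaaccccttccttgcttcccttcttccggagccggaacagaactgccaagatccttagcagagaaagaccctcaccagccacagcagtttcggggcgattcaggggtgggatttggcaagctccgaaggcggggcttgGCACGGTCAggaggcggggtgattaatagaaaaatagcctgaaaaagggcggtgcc
Gsta3, chr1:21240335-21240584, plus strand: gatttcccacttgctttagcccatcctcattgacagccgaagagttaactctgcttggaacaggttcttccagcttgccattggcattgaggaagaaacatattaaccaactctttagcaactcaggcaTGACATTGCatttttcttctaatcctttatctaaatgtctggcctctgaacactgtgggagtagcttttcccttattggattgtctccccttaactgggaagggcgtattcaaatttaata
Gsta2, chr9:78347146-78347395, minus strand: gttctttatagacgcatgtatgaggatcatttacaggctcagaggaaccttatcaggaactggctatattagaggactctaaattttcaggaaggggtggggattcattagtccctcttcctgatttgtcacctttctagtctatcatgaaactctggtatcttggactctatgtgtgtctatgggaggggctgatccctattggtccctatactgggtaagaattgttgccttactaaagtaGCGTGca
Gstp1, chr19:4037913-4038162, minus strand: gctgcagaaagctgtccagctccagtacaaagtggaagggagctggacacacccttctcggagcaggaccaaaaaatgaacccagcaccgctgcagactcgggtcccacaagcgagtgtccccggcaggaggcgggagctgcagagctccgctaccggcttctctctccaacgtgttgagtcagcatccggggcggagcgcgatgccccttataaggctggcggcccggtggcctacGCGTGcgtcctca
In Mgst1 the antioxidant core begins 56 bases before the start, read on the opposite strand, and in Gsta3 it begins 121 bases before it. The xenobiotic core begins 7 bases before the Gsta2 start and 13 bases before the Gstp1 start. The other Mgst1 start in the table held neither.

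Glutathione itself has to be made for the transferases to work, and 6 of 14 genes for its synthesis and recycling rose, with a median of 0.28 for the list. Slc7a11, which imports cystine, rose by 2.02 ± 0.18 (SE, limma adjusted p = 6.51e-05). Red was well above background in 2 of the 5 room air lungs, so its size is uncertain. Dimmer probes rose by 0.44 and 0.55, and another, not above background on any array, was at −0.01. Gclc and Gclm, the catalytic and modifier subunits of the rate-limiting ligase, rose by 1.06 ± 0.20 and 0.93 ± 0.06 (SE, limma adjusted p = 0.00798 and 2.98e-06). The Gclc room air lungs included a value of 1.87 in replicate 1, against 0.64 to 0.94 in the other 4.

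Among the steps after conjugation, 2 of 11 genes for conjugate export and mercapturate formation rose, with a median of −0.01. These were Dpep2, a membrane dipeptidase, at 0.70 ± 0.13 (SE, limma adjusted p = 0.00738), and the exporter Abcc5 at 0.36 ± 0.09 (SE, limma adjusted p = 0.0338). The weaker Dpep2 probe, well above background in red on 4 arrays, gave −0.01, and the other Abcc5 probes gave 0.27 and 0.10 without passing. Of 13 other enzymes that use glutathione, 2 rose, with a list median of 0.03. They were Esd, which hydrolyses the formaldehyde conjugate of glutathione, at 0.66 ± 0.06 (SE, limma adjusted p = 1.12e-04), and the peroxidase Gpx1, at 0.47 ± 0.07 (SE, limma adjusted p = 0.00128). Another Esd probe also rose, by 0.58, and the remaining one, at 0.16, did not pass. The largest difference in this list, 0.84, belonged to a gene that did not pass.

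Of 22 Nrf2 regulators and targets, 11 rose, with a median of 0.33, and the replicate block gave 14 higher and 1 lower. The largest rises were those of the quinone reductase Nqo1, at 2.08 ± 0.09, the thioredoxin reductase Txnrd1, at 1.22 ± 0.16, and the carbonyl reductase Cbr3, at 1.04 ± 0.08 (SE, limma adjusted p = 2.49e-07, 8.02e-04 and 2.14e-05). Of 8 genes of the aryl hydrocarbon receptor list, 3 rose, with a median of 0.57: the monooxygenase Cyp1b1, at 3.06 ± 0.12, the repressor Ahrr, at 1.96 ± 0.11, and the aldehyde dehydrogenase Aldh3a1, at 1.29 ± 0.15 (SE, limma adjusted p = 1.08e-07, 1.76e-06 and 3.78e-04). The 5 genes of this list that did not pass lay between −0.07 and 1.09, and no gene of the list lay near its median. The second Cyp1b1 probe, with red well above background on 5 arrays, rose by 0.52. With the replicate block 3 genes of this list were called higher. The block called 7 synthesis and recycling genes higher, 2 export and mercapturate genes higher and 1 lower, and 3 other glutathione-using enzymes higher. Over all 41173 probes it called 2792 higher and 2227 lower.

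**Figure D4:**
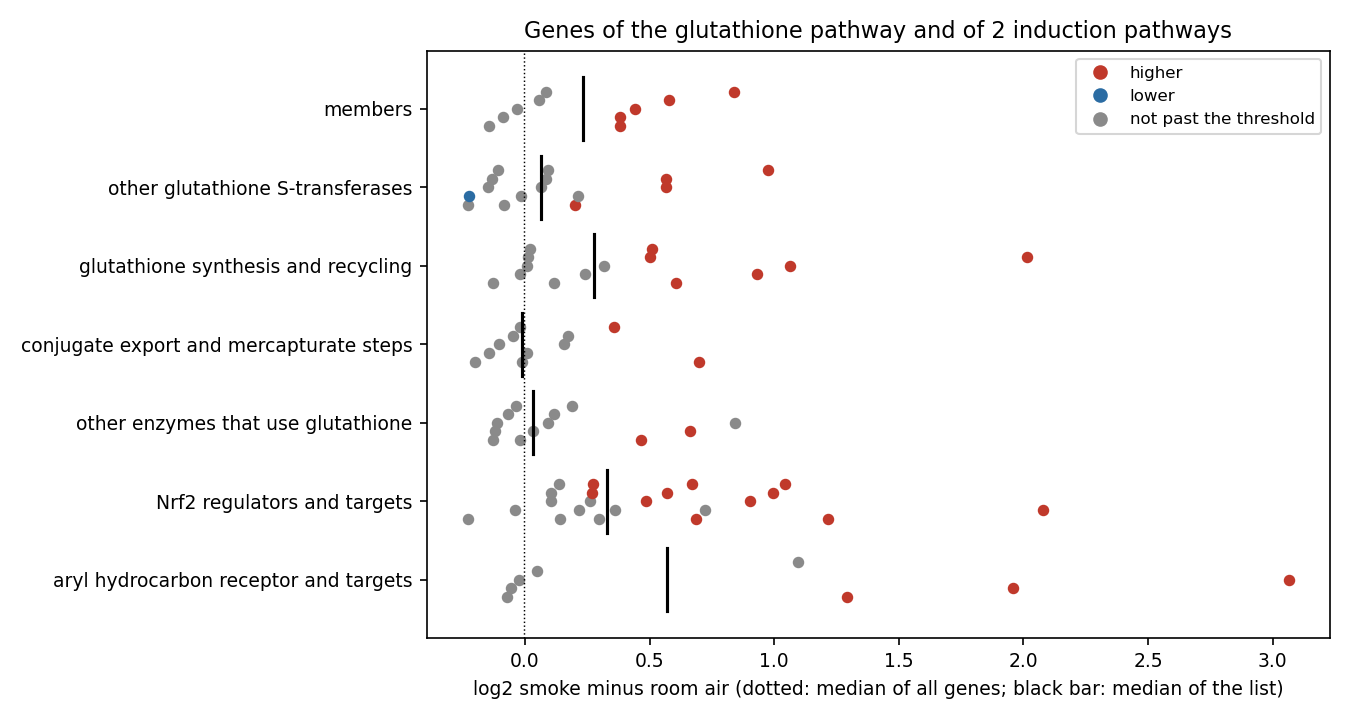
Log2 difference between smoke and room air (horizontal axis) of every measured gene in 7 groups, with 1 point a gene, red for higher, blue for lower and grey for not past the threshold. Black bars are group medians, from −0.01 for conjugate export to 0.57 for the aryl hydrocarbon receptor list, and the dotted line is the median of all genes at −0.0042.

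Most markers of the alveolar macrophage were higher with smoke. Of 8 measured markers 5 rose, among them the scavenger receptor Marco at 2.60 ± 0.41, the chitinase-like Chil3 at 2.12 ± 0.21 and the integrin Itgax at 1.34 ± 0.06 (SE, limma adjusted p = 0.00248, 1.38e-04 and 2.56e-07). Mrc1 rose by 1.14 and Pparg by 0.78, while Siglecf, a defining marker of this cell, was at 0.25 and did not pass (adjusted p = 0.312). The second Itgax probe rose by 0.48. The lowest of the 8 was at −0.66, which did not pass, and 1 marker was called lower with the replicate block. The summed red signal of the 8 markers, in multiples of the array's 75th percentile, was 42.2, 45.1, 44.1, 44.1 and 46.6 in room air and 178, 189, 175, 162 and 198 with smoke, and Chil3 was the brightest of them. Their part in the result was not tested.

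In 8 of 13 marker lists, with 40 genes for club, ciliated, alveolar type 2, alveolar type 1, cardiac muscle, lymphocyte, erythroid and hepatocyte cells, 0 genes passed in limma, with 2 higher and 2 lower at an unadjusted p under 0.05, and with the replicate block 5 were called higher and 2 lower. Over all 41173 probes, 3883 were higher and 3596 lower at an unadjusted p under 0.05 in limma, and the block called 2792 and 2227. The club cell gene Scgb1a1 differed by −0.20 (limma adjusted p = 0.684), Scgb3a2 by 0.23 and Scgb3a1 by 0.47, and none of these passed. With the replicate block Scgb3a1 was called higher (limma adjusted p = 0.0383). Sftpc differed by −0.13 and Ager by 0.03. The hepatocyte gene Alb ranged from 0.08 to 2.83 in room air and from 0.18 to 0.48 with smoke. The summed red signal of the hepatocyte markers was 1.81 in room air replicate 5 and 0.442 in room air replicate 3. In the remaining lungs it was 0.0294 to 0.0795. The source of this signal was not tested. Of the neutrophil genes Mmp8 passed, at 1.16 ± 0.26 (SE, limma adjusted p = 0.021), whereas S100a8 at 0.47 and S100a9 at 0.16 did not. Retnlg went the other way, at −0.43, and did not pass either (limma adjusted p = 0.557). Room air replicate 1 weighs on these values: its S100a8 was 4.39, against 1.49 to 2.09 in the other room air lungs and 2.37 to 3.26 with smoke. The endothelial gene Pecam1 fell by 0.41 ± 0.11 (SE, limma adjusted p = 0.0488) and the smooth muscle gene Acta2 fell by 0.45 ± 0.09 (SE, limma adjusted p = 0.00897), each on its brightest probe only. They were the 1 called of 6 endothelial and the 1 called of 3 smooth muscle markers. Cdh5 and Vwf were each at −0.10, Myh11 at −0.20 and Tagln at −0.31, and none of these passed. Another Tagln probe, at −0.28, did pass, and Myh11 was called lower with the replicate block. Of 5 fibroblast markers 2 fell, the lower at −0.49. The other 3, Col1a1 at 0.25, Col1a2 at 0.07 and Col3a1 at −0.01, did not pass. The summed red signal of the fibroblast markers overlapped, at 71.8 to 114 in room air and 87.7 to 110 with smoke. The summed red signal of the endothelial markers was 175 to 214 in room air and 125 to 142 with smoke, without overlap. Sums were also lower, with overlap, for smooth muscle (81.8 to 103 and 65.9 to 85.8), cardiac muscle (65.7 to 102 and 43.5 to 67.2) and alveolar type 1 markers (175 to 224 and 137 to 179). They were higher, with overlap, for erythroid (1333 to 1991 and 1740 to 2664), alveolar type 2 (1605 to 2710 and 2046 to 3393) and club markers (975 to 1362 and 1045 to 1793). The neutrophil sum was 183 in room air replicate 1, 27.7 to 46.3 in the other room air lungs and 47.2 to 86.7 with smoke. The sums come from red alone, scaled to the 75th percentile, and can differ from the loess ratios, in which Myl7, the brightest cardiac marker, was at −0.07. In those ratios the cardiac list had a median of −0.23. Its Myl4, at −0.46, did not pass (limma adjusted p = 0.0963) and was called lower with the replicate block. The sums were not tested, nor was their part in the result.

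Each slide held the smoke-exposed and the room air lung of 1 replicate number, so the difference could be read within slides. For Gsta2 it was 1.30, 0.43, 0.94, 0.81 and 0.71 on slides 1 to 5, and for Gsta4 it was 0.71, 0.37, 0.66, 0.45 and 0.70. Gstp1 gave 0.26 to 0.56, Gsto1 0.19 to 0.65 and Mgst1 0.37 to 0.61. These 5 members were higher with smoke on 5 of 5 slides. Gsta3 ranged from −0.01 to 0.18, Gstm1 from −0.26 to 0.28, Gstm5 from −0.10 to 0.03 and Gstt1 from −0.19 to 0.04. With the replicate block the same 5 members passed, and over all probes the calls rose from 1793 higher and 1113 lower to 2792 and 2227. In the green channel alone, the reference, the members differed between groups by −0.01 to 0.12, with a limma adjusted p of 1.00 for each, and 6 probes were called over the whole array. On each slide the smoke-exposed lung lay in position 1 and the room air lung in position 2, so group and position cannot be told apart.

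**Figure D5:**
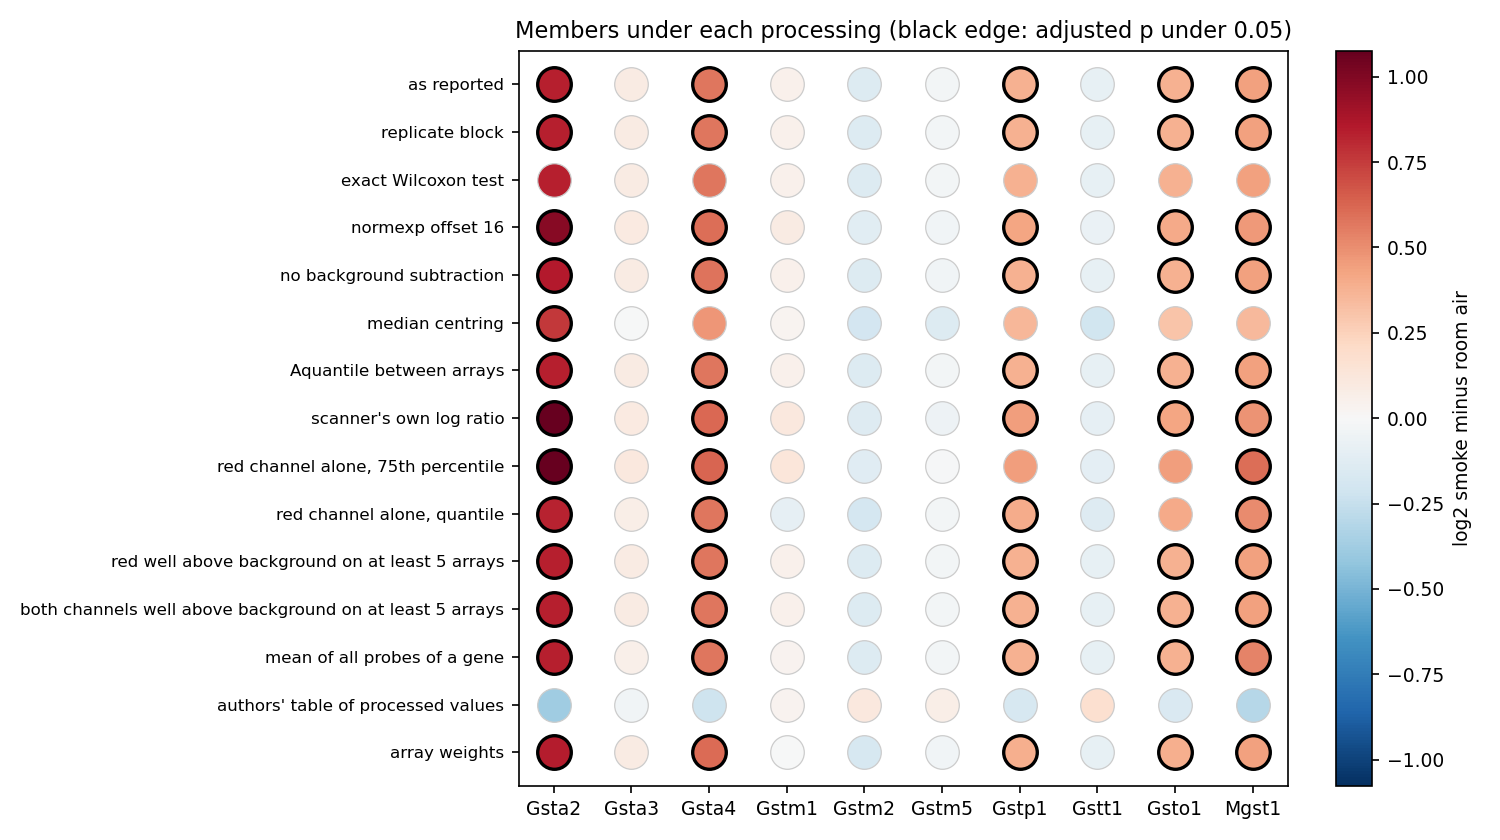
Log2 difference between smoke and room air (colour) of each member (across) under the processing as reported and 14 alternatives (down), with a black edge where the adjusted p was under 0.05. Gsta2 keeps its edge in all but the exact Wilcoxon test and the authors' table of processed values, whose columns carry the arrays of the other group and give Gsta2 −0.38. Quantile scaling of the average intensity (Aquantile) leaves ratios unchanged by construction, so its agreement carries no information.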

How the data were processed

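Lung RNA of 5 smoke-exposed and 5 room air mice was measured on 10 Agilent arrays (5 slides of 2). The deposited scanner files were made by the authors with Feature Extraction 9.5.3.1, per the file headers, and hold spot intensity in red and green and a log10 ratio of red over green. A further table from the authors, in log2, has column medians from 7.34 to 8.06, and its columns carry the arrays of the other group.

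Red was taken as lung from Y-linked and lung genes, since the labels name Cy3 alone. Mean intensity was corrected for median local background by normexp (offset 50), control spots were left out, ratios were fitted by loess within arrays, outlier spots were dropped and the spots of a probe averaged. Groups were compared with limma 3.58.1 in R 4.3.3 (lmFit, eBayes, Benjamini-Hochberg over 41173 probes). A gene is read by its brightest probe. Of the probe names, 22951 came from accessions, 6659 from current symbols and 3109 from synonyms, and 8455 were kept as filed. Array number limits precision: 64.9% to 77.5% of spots were well above background in red. The functions were tested on simulated data.

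The members and lists were chosen with earlier results of these data known. Named genes were all members, other family genes past the threshold, up to 3 of the largest rises and falls past the threshold in each other list, and the first 3 markers of each cell list plus any past the threshold at over 1.5-fold. Alternatives covered background correction, normalisation, channel, dim-probe filters, probe averaging, array weights, the Wilcoxon test, the authors' table, the replicate block and each array left out. Slides pair the replicate numbers: deviations of same-numbered lungs correlated at 0.157 to 0.55. With the replicate block 5019 probes were called.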

Additional observations from a re-analysis of the deposited data

Results flagged for a closer look

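In 12 of 148 groups of 5 lungs, over the 74 probes of the genes named, 1 lung lay far from the other 4, as chance does in about 1 of 20 groups. Of these, 6 were in room air replicate 1, 4 in smoke replicate 4 and 2 in smoke replicate 3. The only one on a member's probe was the second Gsta3 probe, at 3.1 in smoke replicate 4 against 3.49 to 3.61 in the others.

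In room air replicate 1, Gclc was at 1.87 (others 0.64 to 0.94), Txnrd1 at −0.0442 (others −1.01 to −0.79), S100a8 at 4.39 (others 1.49 to 2.09), Mmp8 at 2.31 (others 0.99 to 1.14), Col3a1 at −2.16 (others −1.35 to −1.10) and Tagln at 0.55 (others 0.41 to 0.45). Without that lung, the same 5 members passed, and 2211 probes were called higher and 1449 lower.

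In smoke replicate 4, Marco was at 4.97 (others 5.92 to 6.13), Scgb3a2 at 7.12 (others 8.36 to 8.79) and Tppp3 at 4.33 (others 4.92 to 5.02). In smoke replicate 3, Mrc1 was at 5.15 (others 4.28 to 4.43) and Tagln at 0.52 (others 0.01 to 0.15).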

How the results depend on the processing

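With the replicate block 5019 probes passed, 2792 higher and 2227 lower, and it changed no member's call. The exact Wilcoxon test called 0 probes, 0 higher and 0 lower, and 0 members, with 2937 higher and 2507 lower at an unadjusted p under 0.05 and a smallest adjusted p of 0.115; the differences of Gsta2 (0.84), Gsta4 (0.58), Gstp1 (0.38), Gsto1 (0.38) and Mgst1 (0.44) were then not past the threshold. With median centring 1434 probes passed, 687 of them higher, and 1 member; Gsta4 (0.48), Gstp1 (0.35), Gsto1 (0.31) and Mgst1 (0.35) did not pass, Gsta3 turned to −0.0041, and Gstm5 (−0.14) and Gstt1 (−0.21) moved further below 0. In the red channel alone at the 75th percentile 1759 probes passed, 1142 higher and 617 lower, and 3 members, without Gstp1 (0.45) and Gsto1 (0.45). After quantile normalisation Gsto1 (0.41) did not pass and Gstm1 turned to −0.10, as it did with array weights (−0.0055). The cause of these shifts was not tested. Gsta2 minus Gsta4 passed in the scanner's log ratio (0.46), in red alone (0.45) and without room air replicate 5 (0.31).

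The authors' table called 13 probes, 0 higher and 13 lower, and 0 members, with 361 higher and 403 lower at an unadjusted p under 0.05. Its signs turned for Gsta2 (−0.38), Gsta3 (−0.0400), Gsta4 (−0.22), Gstm2 (0.11), Gstm5 (0.0679), Gstp1 (−0.18), Gstt1 (0.17), Gsto1 (−0.17) and Mgst1 (−0.30), but not for Gstm1, since its columns hold the other group's arrays and average both channels. It left the median of all probes at 0.09.

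Leaving out 1 lung at a time gave 4 to 5 members and 700 to 1449 probes called lower. Gstm1 ranged from −0.0131 to 0.11, Gstm5 from −0.0746 to 0.0103, Gsto1 from 0.31 to 0.43, Gstt1 from −0.16 to −0.02, Gsta3 from 0.05 to 0.13, Gstm1 minus Gstm5 from 0.01 to 0.16, Gstm2 minus Gstm5 from −0.18 to −0.04 and Gsta2 minus Gsta4 from 0.20 to 0.31. The calls of the other pairs and of Gsta2, Gsta4, Gstp1 and Mgst1 held in all of these.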
